A study of Arabidopsis thaliana with 10 samples.

Results

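Translation elongation factor 1 carries aminoacyl-tRNA to the ribosome, and 10 genes of Arabidopsis thaliana encode its cytosolic subunits eEF1A and eEF1B. They were picked by locus code from the 32824 genes of an RNA-seq table: AT1G07920, AT1G07930, AT1G07940 and AT5G60390 for eEF1A, AT5G12110 and AT5G19510 for eEF1B alpha, AT1G30230 and AT2G18110 for eEF1B beta, and AT1G09640 and AT1G57720 for eEF1B gamma. The subunits are named here as in the plant literature, and none of the 10 is a ribosomal protein. In each round of elongation, eEF1A bound to GTP delivers an aminoacyl-tRNA to the ribosome and leaves as the GDP form. The eEF1B complex then exchanges GDP for GTP on eEF1A: its alpha and beta subunits carry the exchange activity, and gamma is a structural partner. eEF1A is among the most abundant proteins of growing plant cells, also binds actin, and its genes are often used as reference genes in quantitative PCR.

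Shoots of 2 genotypes were compared in 5 libraries each. OE is an Arabidopsis line that expresses BnaC02.TPS8, a gene of the trehalose-6-phosphate synthase family from oilseed rape, under the constitutive viral 35S promoter. WT is untransformed Col-0. All plants grew for 10 days on solid MS medium at 0.5x strength with 1% sucrose and without any treatment, and according to the series text the comparison was made to find the pathways that TPS8 regulates when nitrogen is sufficient. The sample titles name a single line, OE-11, whereas the series text names O2. Nothing in the labels tells whether the 5 samples of a genotype were grown separately, and p-values then measure only the spread between these samples, which may be technical.

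Levels are the deposited FPKM, fragments scaled by transcript length and by the fragment total of the library, and summed to 918877 to 996313 per library. Depth was estimated from the steps between low values at 18400000 to 23500000 fragments per library. Green-tissue transcripts (5 markers, among them the Rubisco small subunit and chlorophyll-binding proteins) summed to 74046 to 85262 FPKM in OE and 73804 to 85518 FPKM in WT. The 5 root markers summed to 0 to 0.48 FPKM in OE and 0 to 0.889 FPKM in WT, with LRX1 listed at 0 in all libraries. The Arabidopsis gene TPS8 (AT1G70290) measured 48.9, 53.5, 44.8, 32.3 and 30.2 FPKM in OE replicates 1 to 5, against 96.0, 95.1, 84.5, 75.8 and 67.1 FPKM in WT replicates 1 to 5 (log2 difference -1.0; limma adjusted p = 0.00978). The groups did not overlap in that gene, which is not the transgene; the rape transcript was not analysed here, so transgene expression could not be used to check the labels.

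The 4 eEF1A genes are close copies, which bears on how their levels can be read. In the RefSeq annotation of TAIR10.1, which may differ from the annotation behind the deposited values, AT1G07920 (chromosome 1, 2454771 to 2457321, plus strand), AT1G07930 (2458184 to 2460817, plus strand) and AT1G07940 (2462949 to 2465545, minus strand) stand in a row, with gaps of 862 and 2131 bp between them. AT5G60390 lies on chromosome 5 (24288596 to 24291020, plus strand). Each has a coding sequence of 1350 nt, which is 98.8% to 99.6% identical among the copies of chromosome 1 and 93.8% to 93.9% identical between these and AT5G60390. The 4 sequences differ at 90 of the 1350 positions, of which 86 lie at codon position 3, 4 at codon position 1 and 0 at codon position 2. Positions 34 to 93 of the coding sequence (counted from the A of the start codon) are printed below. They are the 60 bases, in whole codons, with the most positions at which the copies differ, so most other stretches are more alike. They show where AT5G60390 differs from the other copies, which differ less from each other. Capitals mark the 10 of these 60 positions at which the copies differ.
AT1G07920: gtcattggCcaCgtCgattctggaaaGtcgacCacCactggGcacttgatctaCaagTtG
AT1G07930: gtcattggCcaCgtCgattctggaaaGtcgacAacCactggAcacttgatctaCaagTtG
AT1G07940: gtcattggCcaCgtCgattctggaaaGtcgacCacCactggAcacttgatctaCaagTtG
AT5G60390: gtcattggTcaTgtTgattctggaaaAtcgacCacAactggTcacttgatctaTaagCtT

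The 3 copies of chromosome 1 carry the same letters at 8 of the 10 variable positions of this window. A measure for whole transcripts is the share of distinct words of 31 bases that occur in no other gene, counted on both strands, since reads made only of shared words cannot be assigned to 1 gene. It was 31.3% for AT1G07920, 46.2% for AT1G07930, 51.6% for AT1G07940 and 89.7% for AT5G60390. The split of fragments among the copies on chromosome 1 is therefore less certain than their sum, and less certain than the value of AT5G60390. Words were pooled over all annotated transcripts, of which AT1G07920 has 1 and AT1G07940 has 4. Their totals were 1828 and 2555 distinct words, so the higher share of AT1G07940 partly reflects its additional transcripts.

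Among the eEF1B genes, the copies of a subunit are more distant from each other, with coding sequences 79.6% identical for alpha, 81.4% for beta and 87.5% for gamma. The share of words found in no other gene was 93.7% for AT1G30230, 92.9% for AT2G18110, 96.1% for AT1G09640 and 98.6% for AT1G57720. The alpha genes share words with neighbours on the opposite strand. AT5G12110 had 35.0% of its words to itself and 1191 words in common with AT5G12120, which it overlaps by 1221 bp, and AT5G19510 had 72.9% to itself and 258 words in common with AT5G19500, which it overlaps by 288 bp. The labels name the NEBNext Ultra II RNA kit and do not say whether its strand-marking version was used. Whether reads of these overlaps could be assigned to a strand is therefore not known.

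**Figure D1:**
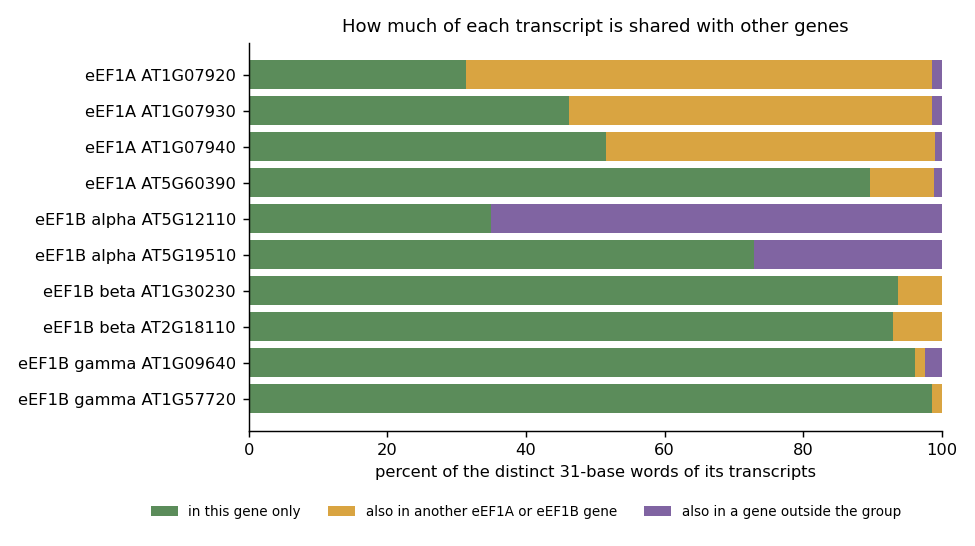
Uniqueness of the transcripts of the 10 genes. Each bar divides the distinct 31-base words of a gene's RefSeq transcripts (x axis, percent) into those found in that gene alone, those also found in another eEF1A or eEF1B gene, and those also found in a gene outside the group; unique words make up 31.3% of AT1G07920 and 89.7% of AT5G60390.

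Short motifs known from promoters of plant translation genes were looked up from 250 bases before to 50 bases after the annotated start of each gene, on both strands. The telo box (AAACCCTA), the site II element (TGGGCC or TGGGCT) and the tef box, which was first described in an eEF1A promoter of Arabidopsis, were searched; none of the matches found overlapped a match to another motif. The tef box was found in 3 of the 10 genes (AT1G07920, AT1G07940 and AT5G60390) and in 1.09% of 27443 gene starts of the same length. All 3 are eEF1A copies, the family in which the box was first described. Their matches are therefore not independent of its definition or of each other. A telo box was found in 4 of the 10 (AT1G07930, AT1G07940, AT5G60390 and AT5G19510) and in 6.22% of all, and a site II element in 6 of the 10 (AT1G07940, AT5G60390, AT5G19510, AT1G30230, AT2G18110 and AT1G09640) and in 21.7% of all. AT5G12110 and AT1G57720 held none of these letters in the window. A match is a description of the letters and does not show that a factor binds there.

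The last 70 bases before the start are printed for the 5 genes with matches in that stretch, so that the arrangement can be seen. All are 5′ to 3′ on the strand of the gene, with TAIR10.1 coordinates; capitals mark site II elements and tef boxes.
AT1G07940 (chr1:2465546-2465615, minus strand): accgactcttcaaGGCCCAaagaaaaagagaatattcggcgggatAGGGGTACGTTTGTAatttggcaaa
AT5G60390 (chr5:24288526-24288595, plus strand): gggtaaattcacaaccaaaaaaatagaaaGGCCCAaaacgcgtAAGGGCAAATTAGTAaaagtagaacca
AT5G19510 (chr5:6583249-6583318, minus strand): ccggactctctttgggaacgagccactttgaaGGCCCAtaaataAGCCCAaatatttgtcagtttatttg
AT1G30230 (chr1:10638808-10638877, plus strand): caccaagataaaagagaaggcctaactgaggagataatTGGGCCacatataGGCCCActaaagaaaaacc
AT2G18110 (chr2:7872131-7872200, plus strand): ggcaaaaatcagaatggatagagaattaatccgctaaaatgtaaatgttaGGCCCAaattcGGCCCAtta

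Downstream of the annotated start, 4 of the genes carry a telo box and AT1G07920 carries its tef box. For AT1G07920 and 3 of the genes with a telo box, the 30 bases around the motif are printed with the motif in capitals.
AT1G07920 (chr1:2454772-2454801, plus strand): ggctaaacAGGGGCATAATGGTAatttaaa
AT1G07940 (chr1:2465515-2465544, minus strand): gatgttatgttAAACCCTAacttattattt
AT5G60390 (chr5:24288599-24288628, plus strand): agagaaagcgaAAACCCTAgacacctcgta
AT5G19510 (chr5:6583219-6583248, minus strand): ggttTAGGGTTTctcagagtctcacagctc

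In AT1G07940 and AT5G60390, a site II element, a tef box and a telo box follow each other in that order. The first base of the site II element lies at -57 and -41, that of the tef box at -25 and -27, and that of the telo box at 13 and 15, where -1 is the last base before the start. AT5G60390 has another telo box at -240. AT5G19510 pairs 2 site II elements with a telo box, AT1G30230 has 3 site II elements, the farthest at -74, and AT2G18110 has 2, the farther at -20. The 2 beta genes thus both hold repeated site II elements.

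**Figure D2:**
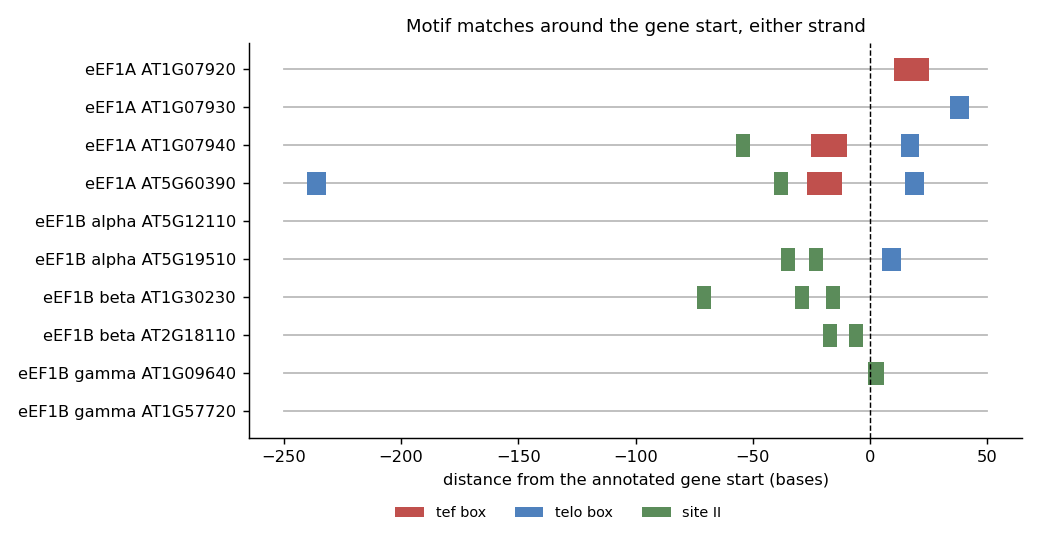
Motif matches in the 10 genes, from 250 bases before to 50 bases after the annotated gene start (x axis, distance in bases; dashed line, start). Boxes are matches on either strand to the tef box, telo box and site II element; AT1G07940 and AT5G60390 share the order site II, tef box, telo box around the start.

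The transcripts of eEF1A were higher in OE shoots than in WT shoots for all 4 copies, and those of eEF1B for the most abundant alpha copy and 1 gamma copy. In the test over all 17713 genes with a mean of at least 1 FPKM (limma on log2(FPKM + 1), Benjamini-Hochberg adjustment, threshold 0.05), 6 of the 10 genes rose, where 2.37% of all genes tested were called higher. None of the 10 fell, where 0.525% of all were called lower; 8 of the 10 had an unadjusted p under 0.05, against 15.1% of all genes tested. In 8 of the 10 every OE library lay above every WT library, which held for 4.41% of all. All 10 passed the filter on low values. The eEF1A copies share sequence, so these counts do not come from 10 independent genes. Most of the 10 are also abundant, whereas the shares of all genes cover every level from a mean of 1 FPKM. The median log2 difference of the 10 was 0.31, with a range of 0.03 to 0.36, against a median of 0.00 over all genes tested, and all 10 were above 0, as were 50.8% of all. In bulk shoots, more cells that express a gene and more of its RNA per cell cannot be told apart.

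AT5G60390 was the most abundant of the 4 eEF1A copies and ranked 77 of 17713 genes by mean FPKM. It measured 1579, 1565, 1405, 1490.2 and 1612 FPKM in OE replicates 1 to 5, against 1335, 1275, 1144, 1192 and 1200.3 FPKM in WT replicates 1 to 5. Its lowest OE library (replicate 3) was above its highest WT library (replicate 1). The mean was 1529.9 ± 83.0 FPKM in OE and 1229 ± 75.6 FPKM in WT (SD, n = 5), a log2 difference of 0.32 (SE 0.06; limma adjusted p = 0.0138).

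The copies of chromosome 1 were each present at a fraction of that level. AT1G07920 measured 363, 372, 334, 335 and 365 FPKM in OE replicates 1 to 5, against 304, 279, 277, 258 and 274 FPKM in WT replicates 1 to 5. AT1G07930 measured 278, 293, 260.1, 293 and 291 FPKM in OE, against 234, 225, 217, 207 and 234 FPKM in WT, in the same order. AT1G07940 measured 326, 350.4, 302, 314 and 338 FPKM in OE, against 275, 258, 263, 231 and 256 FPKM in WT. In none of them did the groups overlap, and OE replicate 3 was the lowest OE library in all 3. AT1G07920 averaged 354 ± 18.1 FPKM in OE and 278 ± 16.4 FPKM in WT (log2 difference 0.35, SE 0.06; limma adjusted p = 0.00932). AT1G07930 averaged 283 ± 14.3 FPKM in OE and 223 ± 11.7 FPKM in WT (log2 0.34, SE 0.05; limma adjusted p = 0.00923). AT1G07940 averaged 326 ± 19.1 FPKM in OE and 257 ± 16 FPKM in WT (log2 0.34, SE 0.06; limma adjusted p = 0.0124). The log2 differences of the 4 copies thus lay between 0.32 and 0.35, closer together than the SE of any of them.

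Transcripts of the eEF1B alpha subunit, 1 of the 2 nucleotide exchange subunits, came almost wholly from AT5G19510 by FPKM. That gene measured 428, 457, 412, 456 and 509.7 FPKM in OE replicates 1 to 5, against 358, 348, 318, 369 and 364 FPKM in WT replicates 1 to 5. OE replicate 5 was the highest, and the groups did not overlap. The mean was 452 ± 37.4 FPKM in OE and 351 ± 20.2 FPKM in WT, a log2 difference of 0.36 (SE 0.07; limma adjusted p = 0.0147). The other alpha gene, AT5G12110, measured 4.97, 5.36, 4.51, 4.29 and 5.22 FPKM in OE, against 5.81, 5.20, 3.84, 4.74 and 3.41 FPKM in WT. The WT libraries spanned the whole OE range (log2 difference 0.08, SE 0.12; limma adjusted p = 0.809). Its overlapping neighbour AT5G12120 was more abundant, at 29.4 ± 1.52 FPKM in OE and 31.8 ± 3.51 FPKM in WT. The level of AT5G12110 may therefore also rest on how shared fragments were assigned, and the part of this in its value was not tested.

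The beta subunit, the other exchange subunit, had a major and a minor copy, neither of which was called. AT1G30230 measured 307, 323, 294, 319 and 365 FPKM in OE replicates 1 to 5, against 254, 251, 237, 285 and 280.2 FPKM in WT replicates 1 to 5. Each OE library was above each WT library, with a mean of 322 ± 26.6 FPKM in OE and 262 ± 20.5 FPKM in WT. The log2 difference of 0.30 (SE 0.07) missed the threshold (limma adjusted p = 0.0506). AT2G18110 measured 51.3, 50.3, 51.5, 55.9 and 57.7 FPKM in OE, against 50.6, 47.0, 52.2, 53.6 and 57.8 FPKM in WT, and the ranges were nearly the same (log2 0.03, SE 0.07; limma adjusted p = 0.877).

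For gamma, the structural subunit, the copies were nearer to each other in level. AT1G57720 measured 173, 168, 158, 174 and 178 FPKM in OE replicates 1 to 5, against 149, 141, 133, 146 and 143 FPKM in WT replicates 1 to 5 (log2 0.26, SE 0.05; limma adjusted p = 0.0252). AT1G09640 measured 122, 117, 112, 119.9 and 121 FPKM in OE, against 104, 98.9, 96.3, 105 and 109.5 FPKM in WT. The groups did not overlap in either gene, but the log2 difference of AT1G09640 was 0.21 (SE 0.05) and missed the threshold (limma adjusted p = 0.0589).

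**Figure D3:**
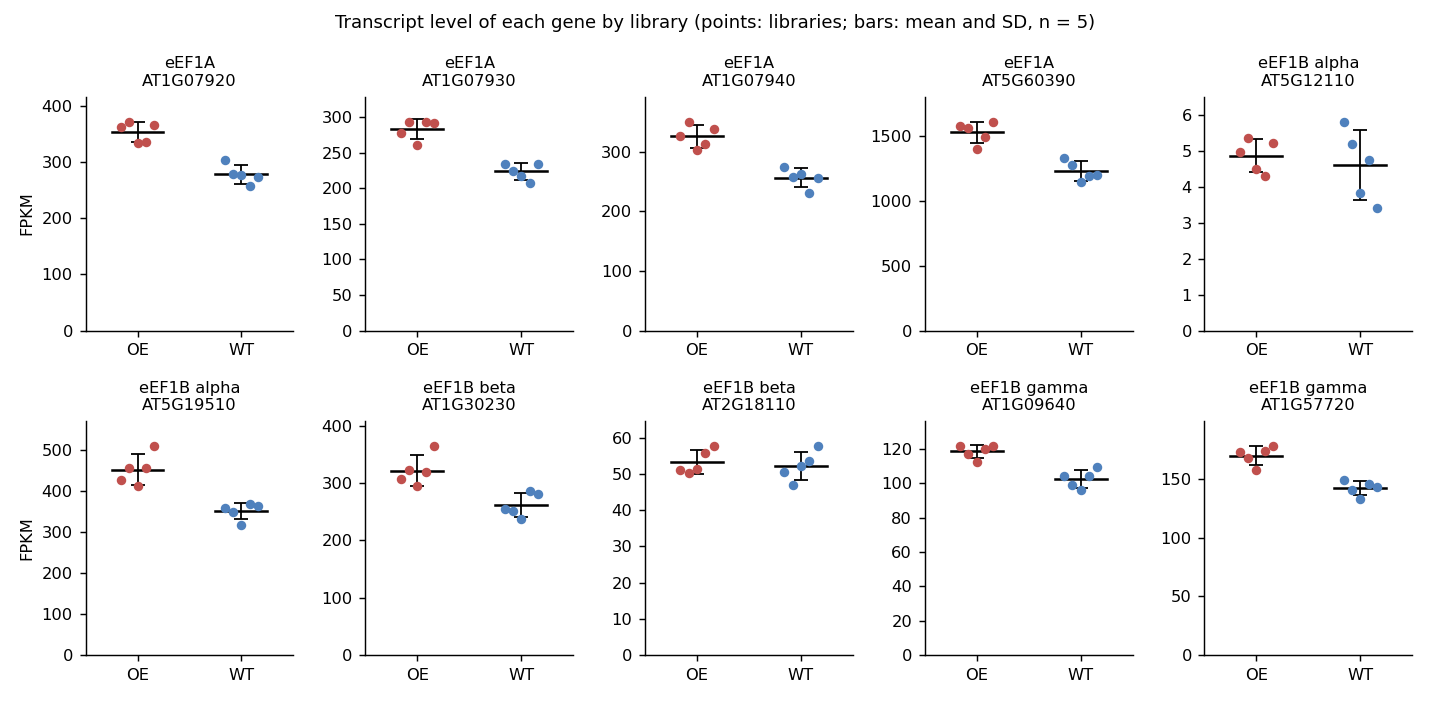
FPKM of each of the 10 genes in OE (left, red) and WT (right, blue); points are libraries in replicate order, bars the mean and SD of 5 libraries, and each y axis starts at 0 with its own scale. The groups do not overlap in 8 genes, and do in AT5G12110 and AT2G18110.

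AT1G07920, AT1G07930 and AT1G07940 stayed past the threshold with each library left out in turn (highest limma adjusted p = 0.0452). Without OE replicate 2 these 3 of the 10 genes were called, and AT5G60390 and AT5G19510 missed the threshold (limma adjusted p = 0.0501 and 0.0519) with log2 differences of 0.31 and 0.36. AT1G57720 missed it without WT replicates 2 or 5 or without OE replicates 1, 2, 4 or 5 (adjusted p = 0.0589 to 0.0726), whereas AT1G30230 passed it without WT replicate 4 (0.0481). Without the 3 libraries of highest plastid FPKM (OE replicate 4 and WT replicates 2 and 4), limma called 0 of the 10 and 0 of all genes, with an unadjusted p under 0.05 in 1845 genes. The log2 differences of the 6 genes were then 0.25 to 0.38. Plastid transcripts made up 0.44% to 2.90% of FPKM in OE libraries and 0.55% to 4.28% in WT libraries. After quantile normalization AT1G07920 and AT1G07940 missed the threshold (log2 0.21 and 0.22; adjusted p = 0.0906 and 0.0893), as AT1G07940 did after median-ratio scaling (0.33; 0.0503).

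Since the copies share sequence, their levels were also summed per subunit, as a description without a test. The eEF1A sum was 2546, 2581, 2300.5, 2432 and 2606 FPKM in OE replicates 1 to 5, against 2149, 2036, 1899, 1888 and 1964 FPKM in WT replicates 1 to 5, a ratio of 1.25. Its lowest OE library was again replicate 3, and it stayed above the highest WT library. The alpha sum averaged 457 ± 37.6 FPKM in OE and 356 ± 20.5 FPKM in WT (ratio 1.28). The beta sum averaged 375 ± 29.1 FPKM in OE and 314 ± 23.2 FPKM in WT (1.20). The gamma sum averaged 289 ± 11.8 FPKM in OE and 245 ± 10.4 FPKM in WT (1.18). Each OE library was above each WT library in all 4 sums. All 10 genes together made up 0.382% ± 0.0197 of FPKM in OE and 0.307% ± 0.0182 in WT.

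The ratios of eEF1A to the subunits of its exchange factor overlapped between the genotypes. Per FPKM of alpha there were 5.47 ± 0.312 FPKM of eEF1A in OE and 5.6 ± 0.377 in WT. Per FPKM of beta there were 6.66 ± 0.367 in OE and 6.37 ± 0.645 in WT, and per FPKM of gamma 8.63 ± 0.284 in OE and 8.11 ± 0.431 in WT. The groups overlapped in each of these 3 ratios. The ratio to beta went down with replicate number in OE, at 7.11, 6.91, 6.65, 6.48 and 6.17 in replicates 1 to 5. In WT it was 7.04, 6.84, 6.56, 5.57 and 5.81. At each replicate number OE was above WT in the ratios to beta and gamma, but not in that to alpha. The numbers do not pair the samples 1 to 1, and this order was not tested. Only the ratio of alpha to beta, among the 5 ratios between subunits computed, had no overlap, at 1.22 ± 0.0136 in OE and 1.14 ± 0.05 in WT. The ratio of alpha to gamma was 1.58 ± 0.094 in OE and 1.45 ± 0.0341 in WT. Its groups overlapped only through OE replicate 1 (1.47, against a highest WT value of 1.49). The ratio of eEF1A to gamma overlapped only through OE replicate 4 (8.27, against 8.49).

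Whether copies of a subunit differed in their response was tested on the log2 ratio of 2 copies, by exact permutation of all 252 assignments of the libraries, two-sided (smallest possible p = 0.00794), adjusted over 9 pairs. Among the 6 pairs of eEF1A the ratio moved by -0.00 to 0.03 between OE and WT (SE 0.02 to 0.05; adjusted p = 0.839 to 0.944). AT5G60390 contributed 61.4% ± 0.567 of the eEF1A sum in OE and 61.8% ± 1.16 in WT. AT1G07920 contributed 14.2% in OE and 14% in WT, AT1G07940 13.1% in OE and 12.9% in WT, and AT1G07930 11.4% in OE and 11.2% in WT. The composition of the eEF1A pool thus differed by less than its spread between libraries.

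For beta the log2 ratio of AT1G30230 to AT2G18110 was 2.57 ± 0.08 in OE and 2.30 ± 0.10 in WT, a difference of 0.27 (SE 0.06). Every OE library was above every WT library (exact permutation p = 0.00794), which is the smallest p this test can give. Adjusted over the 9 pairs it was 0.0714, the lowest value that a single pair at that smallest p can reach, so the design could not place this pair alone under 0.05. AT1G30230 made up 85.7%, 86.5%, 85.1%, 85.1% and 86.3% of the beta sum in OE replicates 1 to 5, against 83.4%, 84.2%, 82.0%, 84.2% and 82.9% in WT replicates 1 to 5. The major beta copy thus had a larger share in every OE library than in any WT library. For alpha the log2 ratio of AT5G12110 to AT5G19510 differed by -0.28 (SE 0.12; exact permutation p = 0.0714, adjusted 0.214), with a share of AT5G19510 of 98.9% in OE and 98.7% in WT. For gamma the ratio of AT1G09640 to AT1G57720 differed by -0.05 (SE 0.03; exact permutation p = 0.0714, adjusted 0.214), and AT1G57720 made up 58.9% ± 0.430 in OE and 58.1% ± 0.887 in WT. Without WT replicate 5 the beta and the alpha ratio each passed (0.26 and -0.37; adjusted exact permutation p = 0.0357 for both). Both pairs were then at the smallest possible p, which lowers the adjusted value; the beta difference itself was about the same as with all libraries.

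**Figure D4:**
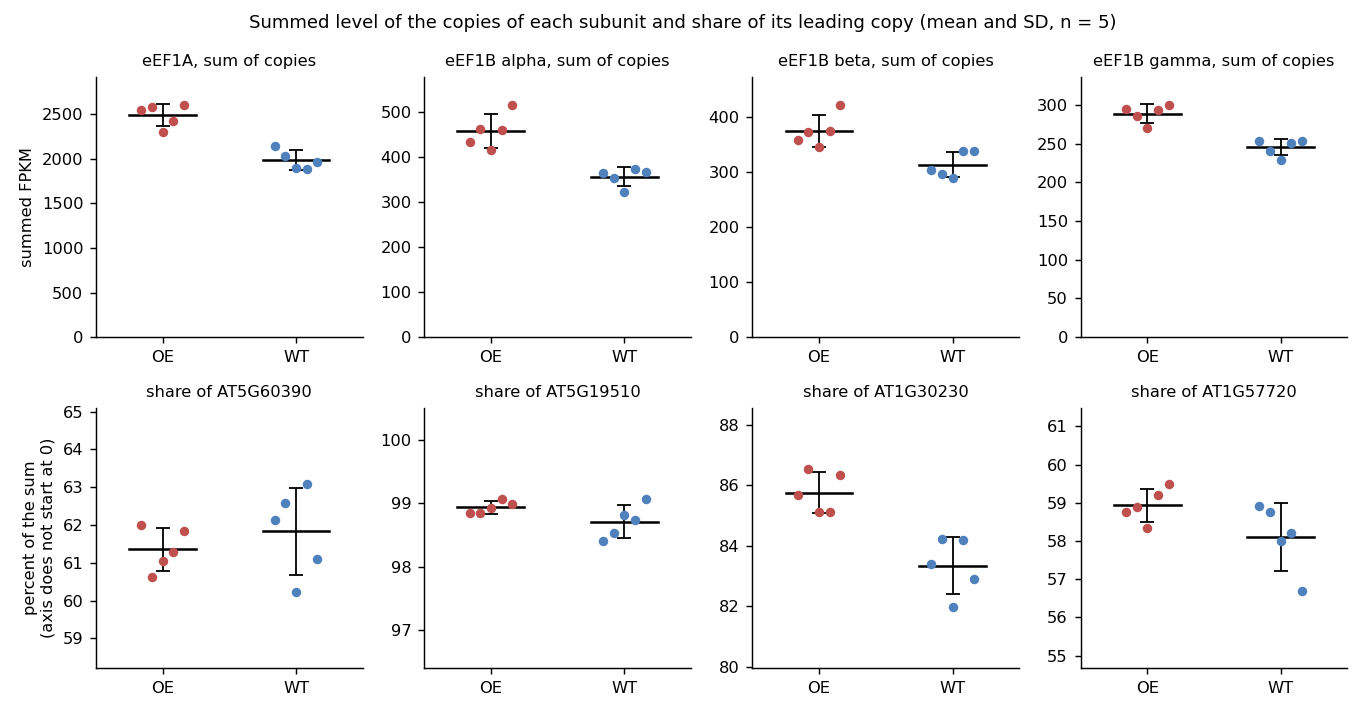
Summed FPKM of the copies of each subunit (top row, y axes from 0) and the percentage of that sum from its leading copy (bottom row, y axes not from 0), in OE (left, red) and WT (right, blue); points are libraries, bars the mean and SD of 5. No sum overlaps between the groups, and of the 4 shares only that of AT1G30230 does not, at 85.8% in OE and 83.3% in WT.

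Ordered by FPKM over the 10 libraries, AT5G60390 came first, followed by AT5G19510, AT1G07920, AT1G30230, AT1G07940, AT1G07930, AT1G57720, AT1G09640, AT2G18110 and AT5G12110. The ranges of neighbours overlapped from AT5G19510 through AT1G07930. AT1G30230 was above AT1G07940 in 4 of the 10 libraries, which were replicates 4 and 5 of both genotypes. The order of these genes thus differed between low and high replicate numbers. AT5G60390 stood apart at the upper end, and the 4 genes from AT1G57720 to AT5G12110 stood apart from their neighbours. OE replicate 3 was the lowest OE library for 8 of the 10 genes, OE replicate 5 the highest for 5, WT replicate 1 the highest WT library for 6 and WT replicate 3 the lowest for 5.

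Within the genotypes, after each genotype's mean was taken off log2(FPKM + 1), the eEF1A copies varied together, and so did 4 of the 6 eEF1B genes. Over the 10 libraries Pearson's r was 0.63 to 0.93 between pairs of eEF1A copies and 0.68 to 0.94 between pairs of AT5G19510, AT1G30230, AT1G09640 and AT1G57720, the highest being that of AT5G19510 with AT1G30230. With AT5G12110 and AT2G18110 included, pairs of eEF1B genes ranged from -0.58 to 0.94, and the lowest was the pair of these 2 genes. Between an eEF1A copy and 1 of these 4 eEF1B genes it was -0.04 to 0.77, with a median of 0.31. Between an eEF1A copy and AT5G12110 or AT2G18110, r was -0.29 to 0.76, with a median of 0.18. All these values of r are descriptions without a test: all genes of a library share its depth and composition, and the eEF1A copies share sequence. In both genotypes the ratio of eEF1A to beta was also lower in replicates 4 and 5 than in replicates 1 to 3. The part of this order in the correlations was not tested. The 5 other nuclear genes of at least 5 FPKM with the highest r to the mean of the 10 genes, among 12220 compared and leaving out those whose product is named a ribosomal protein, were AT5G52650 (an S10-domain protein; r = 0.96), AT3G43520 (a transmembrane 14C protein; 0.95), AT1G57860 (a translation protein SH3-like family member; 0.94), UBQ1 (AT3G52590, a ubiquitin extension protein; 0.94) and AT3G04950 (a SEC-C motif protein; 0.94). The choice went by product name alone, and AT5G52650, AT1G57860 and UBQ1 do belong to cytosolic ribosomal protein families, so these neighbours are not all outside the ribosome. UBQ1 averaged 643 ± 40.0 FPKM in OE and 477 ± 34.0 FPKM in WT (log2 0.43; limma adjusted p = 0.00793).

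The other cytosolic factors of elongation, termination and ribosome recycling moved less. Of 16 listed genes 13 were tested, and 2 rose and 0 fell, against 2.37% and 0.525% of all genes tested. The median log2 difference was 0.11, with a range of -0.19 to 0.26. Above 0 were 12 of the 13, against 50.8% of all genes tested. LOS1 (AT1G56070), which encodes eEF2, the translocase of elongation, averaged 405 ± 19.9 FPKM in OE and 345 ± 10.6 FPKM in WT (log2 0.23, SE 0.05; limma adjusted p = 0.0275). FBR12 (AT1G26630), an eIF5A that helps ribosomes past difficult peptide bonds and the most abundant gene of the list, averaged 763 ± 41.0 FPKM in OE and 644 ± 36.4 FPKM in WT (log2 0.24, SE 0.06; limma adjusted p = 0.0407). TCTP (AT3G16640), whose protein binds eEF1A in animals, averaged 619 ± 30.6 FPKM in OE and 587 ± 22.4 FPKM in WT (log2 0.08; limma adjusted p = 0.522). Neither call held without WT replicates 2, 3 or 5 or OE replicates 2, 4 or 5, where 0 of the 13 passed, and 1 passed without WT replicate 4 or OE replicate 1. That the differences of eEF1A and eEF1B exceeded those of the other factors was not tested.

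**Figure D5:**
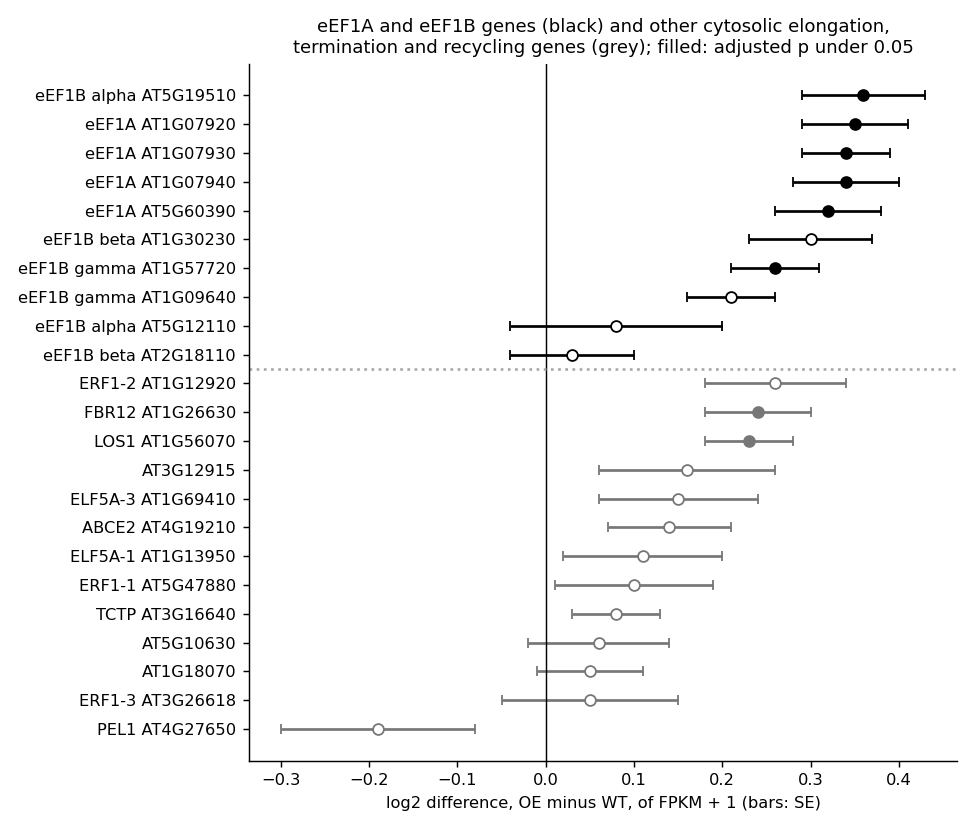
Log2 difference, OE minus WT, of FPKM + 1 (x axis; bars, SE of the limma fit over 10 libraries) for the 10 eEF1A and eEF1B genes (black, above the dotted line) and the 13 other tested cytosolic factors of elongation, termination and recycling (grey); filled points have an adjusted p under 0.05. The 10 genes lie between 0.03 and 0.36, the other 13 between -0.19 and 0.26.

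In plastids and mitochondria, elongation runs on factors of bacterial type. Of 11 genes for these, all tested, 1 rose and 0 fell, against 2.37% and 0.525% of all genes tested. The median log2 difference was 0.15, and 10 of the 11 were above 0, against 50.8% of all genes tested. In 3 of the 11 every OE library lay above every WT library, which held for 4.41% of all. AT4G02930, the mitochondrial EF-Tu that corresponds to eEF1A, averaged 46.9 ± 2.39 FPKM in OE and 36.4 ± 4.60 FPKM in WT (log2 0.37, SE 0.09; limma adjusted p = 0.0497). This call was lost without any 1 library other than WT replicate 1. RABE1b (AT4G20360), the plastid EF-Tu and the most abundant of the 11, averaged 937 ± 34.4 FPKM in OE and 933 ± 27.8 FPKM in WT (log2 0.01, SE 0.04; limma adjusted p = 0.963).

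Aminoacyl-tRNA synthetases make the substrate of eEF1A. The list taken by product name held 64 genes and was not split by compartment, so it also holds synthetases of organelles. Several product names also give other domains, so not all of these genes are synthetases. Of the 64 genes, 49 were tested. Of these, 3 rose and 0 fell (AT5G66860, AT3G11710 and AT2G33840; log2 0.43, 0.25 and 0.30; limma adjusted p = 0.00793, 0.0392 and 0.0402), with a median log2 difference of 0.09, and 37 of the 49 were above 0. Over all genes tested, 2.37% were called higher, 0.525% were called lower and 50.8% were above 0. AT5G66860, which by its product name carries a ribosomal L25 and anticodon-binding domain, averaged 33.1 ± 1.99 FPKM in OE and 24.4 ± 1.24 FPKM in WT. Without any 1 of WT replicates 2 to 5 or OE replicates 1 to 4, 1 of the 49 passed. AT1G48450, the most abundant of the list, averaged 113 FPKM in OE and 113 FPKM in WT (limma adjusted p = 0.978). Its product name also gives a domain of unknown function.

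Of the cell type markers, those of dividing cells are given here because growing tissue is rich in elongation factors. The 5 markers summed to 107 to 127 FPKM in OE and 84.3 to 122 FPKM in WT, and 1 of the 5 passed: PCNA1, the sliding clamp of DNA replication, averaged 22.5 ± 2.43 FPKM in OE and 17.0 ± 1.76 FPKM in WT (log2 0.38; limma adjusted p = 0.0497), and its groups overlapped. For comparison, 2.37% of all genes tested were called higher. The part of dividing cells in the eEF1A and eEF1B differences was not tested.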

How the data were processed

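RNA-seq of shoots was analysed for 5 OE and 5 WT samples, grouped by title, from a single table deposited by the authors. Its values are FPKM per gene, as the deposited table's name states. The submitters' processing notes name kallisto 043.1, sleuth, Trimmomatic 0.36, FastQC and R 3.5.1, with no role for any; which genome build and gene models were used is not given in the sources used here. The table holds no counts, and its steps gave whole reads too seldom to recover them (59.6% to 76.9% of low values within 0.05 of a whole number), so depth is an estimate for an assumed fragment length of 200 nt.

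Of 32824 genes, the 17713 with a mean of at least 1 FPKM over the 10 libraries were tested with limma 3.58.1 in R 4.3.3 on log2(FPKM + 1), with a variance trend, genotype as the only term, two-sided, and Benjamini-Hochberg adjustment over all of them. On this scale the changes of low genes are understated. The model was also run on simulated data, with noise independent between genes. It recovered 10.5% of genes changed 1.25-fold, 62.5% at 1.5-fold and 91.5% at 2-fold, with 0 to 8 false calls per run. A gene that was not called may therefore still differ by about 1.25-fold. Copy ratios were compared by exact permutation. Genes named beside the 10 were up to 4 called genes and the most abundant gene of each list, the 5 genes of most similar pattern, and TPS8. TCTP, LRX1 and the neighbours of the alpha genes were named outside this rule, with their values known. The members and lists were chosen with earlier results of these data known. Alternatives were a pseudocount of 0.5 or 0.1, a filter of 5 FPKM or none, quantile and median-ratio normalization, nuclear genes alone, a block for the replicate number, sample weights, no trend, and omission of each library or of the 3 with most plastid FPKM. Sequences, coordinates and words of 31 bases came from RefSeq's TAIR10.1 with Python 3.11.15; figures used matplotlib 3.10.9.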

Additional observations from a re-analysis of the deposited data

How the results depend on the processing

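No gene of the 10 called higher in OE changed direction in any alternative. AT2G18110, which was not called, reversed to a log2 difference of -0.01 without WT replicate 2 and -0.02 without the 3 libraries of highest plastid FPKM (-0.01 to 0.07 with each library left out). The ratios of the 4 subunit sums stayed within 1.24 to 1.28 for eEF1A, 1.24 to 1.31 for alpha, 1.16 to 1.22 for beta and 1.16 to 1.20 for gamma when each library was left out. The 6 called genes of the 10 numbered 4 to 8 under the alternatives that kept all libraries and 3 to 7 with each library left out; the 0 called lower stayed 0. Over all genes, 512 were called (419 higher, 93 lower), and 207 to 536 (182 to 431 higher, 25 to 105 lower) with each library left out; the count was 291 without WT replicate 2, 277 without WT replicate 5, 207 without OE replicate 2 and 273 without OE replicate 4. Genes called lower numbered 156 after quantile normalization and 55 without the trend. Without the 3 libraries of highest plastid FPKM, 0 genes were called in any direction or list. The cause of these differences was not tested.

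The 2 calls among the other cytosolic factors became 1 without a filter and with sample weights and 0 after quantile or median-ratio scaling and without the trend (0 to 2 with each library left out). The 1 call among organellar factors became 0 with pseudocounts of 0.5 or 0.1, without a filter, with nuclear genes alone and without the trend (0 to 1 with each library left out). The 3 calls among genes named for tRNA synthetases became 1 without the trend (1 to 3 with each library left out).

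Replicate numbers did not pair the samples 1 to 1. Same-numbered OE and WT libraries correlated by -0.086 to 0.199 in their deviations, over 0.1 in 2 of 5 pairs. Of the 5 OE libraries, 2 correlated best with their own number. Low and high numbers did show a shared pattern. OE replicates 4 and 5 correlated with WT replicates 4 and 5 by 0.074 to 0.178, and OE replicates 1 and 2 with the same WT libraries by -0.241 to -0.068. What lies behind this pattern was not tested. With the replicate block 781 genes were called (592 higher, 189 lower), and 8 of the 10, with AT1G30230 (limma adjusted p = 0.0183) and AT1G09640 (0.0395) added. AT1G30230 also passed with a filter of 5 FPKM (0.0401) and with nuclear genes alone (0.0499), and AT1G09640 without a filter (0.0479) and with a filter of 5 FPKM (0.0485), at which AT5G12110 was not tested. AT1G57720 missed the threshold without the trend (0.0611). Without counts, no counting error could be given for any gene.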
